A study of Mus musculus with 17 samples.

Results

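Of the 8446 genes in the table of single Tomato-positive skin cells, 87 are nuclear genes of the mitochondrial respiratory chain and ATP synthase. They were taken by symbol: genes beginning Nduf followed by a, b, c, s or v, the succinate dehydrogenase genes Sdha to Sdhd, genes beginning Uqcr, Cox followed by a digit from 4 to 8, or Atp5, and Cyc1 and Cycs. No measured value entered the choice. By function or symbol 44 were counted with complex I, 4 with II, 9 with III, 13 with IV and 16 with V. Cycs encodes the carrier cytochrome c. Ndufa4 was counted with complex IV, where its product is now placed in spite of its name. Its paralog Ndufa4l2 was left with complex I by symbol. Among the 87 are 10 genes that encode no subunit of a complex: 7 complex I assembly factors (Ndufaf genes), Ndufa4l2, Cox7a2l and Atp5s.

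The 17 cells came from back skin of adult C57BL/6 mice of the genotype Prrx1-CreERT;Tomato, which had been given tamoxifen at 2 mg per 30 g of mouse daily for 3 days. In such mice the Cre recombinase is driven from Prrx1 and switches on the red reporter only while tamoxifen is present, so the sort marks cells by their Prrx1 activity at that time. Elastase and collagenase digestion, a sort for Tomato and picking of single cells yielded the material, and a 3' end kit was used for the libraries. All cells form 1 group with no animal named, so they stand as 1 sample and no test between conditions exists.

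The respiratory chain sits in the inner mitochondrial membrane. Complex I takes electrons from NADH and complex II from succinate; both pass them to ubiquinone, complex III hands them on to cytochrome c, and complex IV reduces oxygen. Complexes I, III and IV pump protons, and complex V lets the protons flow back to make ATP. Complexes I, III, IV and V also hold subunits encoded in mitochondrial DNA, which are not analysed here, whereas complex II is wholly nuclear. Fibroblasts, the main cells of dermis, use both glycolysis and respiration. In mammals many of the nuclear genes are known targets of the transcription factors NRF-1, GABP (an ETS factor, also called NRF-2) and YY1.

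Promoter windows of RefSeq (GRCm38.p6, 250 bases before to 50 after the start, the most upstream start of each gene) matched 72 of the 87 genes by symbol. The NRF-1 motif, read as GCGCA and GCGC with any 1 base between them, on either strand, stood in 18 of these 72 windows (25.0%), against 753 of 6494 other genes of the table with a window (11.6%) and 4.82% of all 27025 windows. Against other genes detected in all 17 cells, the share was likewise 11.6% (93 of 801). The ETS motif CCGGAAG, also on either strand, stood in 16 windows (22.2%), against 20.2% of the other genes of the table. The YY1 motif, AAGATGG followed directly by CGGC on either strand, stood in 4 windows (5.56%), against 1.91%. Atp5h, Atp5k, Cox6a1 and Sdhd held both the NRF-1 and the ETS motif. These are matches of letters in a fixed window, with no binding measured. The 4 stretches that follow lie upstream of the annotated exons and show the motifs in 4 members: Cox6a1, the highest of complex IV, Atp5h of complex V, Ndufs5, an accessory subunit of complex I, and Atp5e, the highest of all members. They are written 5′ to 3′ on the gene's own strand (the minus strand in each), with motif letters in capitals: NRF-1 in the first 3 and, read on the opposite strand, ETS in Atp5e. In Cox6a1 the first NRF-1 match reads the same on both strands.
Cox6a1, chr5:115348982-115349129: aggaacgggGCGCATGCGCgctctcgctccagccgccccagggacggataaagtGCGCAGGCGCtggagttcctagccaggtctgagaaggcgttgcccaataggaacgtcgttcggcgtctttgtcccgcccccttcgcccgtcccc
Atp5h, chr11:115419963-115420127: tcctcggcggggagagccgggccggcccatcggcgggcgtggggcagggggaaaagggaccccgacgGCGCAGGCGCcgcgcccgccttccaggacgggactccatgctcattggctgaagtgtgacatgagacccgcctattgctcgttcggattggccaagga
Ndufs5, chr4:123718203-123718436: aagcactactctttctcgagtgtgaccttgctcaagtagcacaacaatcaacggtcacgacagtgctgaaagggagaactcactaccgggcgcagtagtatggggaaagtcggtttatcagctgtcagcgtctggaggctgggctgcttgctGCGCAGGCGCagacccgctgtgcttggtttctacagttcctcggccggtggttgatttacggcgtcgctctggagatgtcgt
Atp5e, chr2:174464106-174464351: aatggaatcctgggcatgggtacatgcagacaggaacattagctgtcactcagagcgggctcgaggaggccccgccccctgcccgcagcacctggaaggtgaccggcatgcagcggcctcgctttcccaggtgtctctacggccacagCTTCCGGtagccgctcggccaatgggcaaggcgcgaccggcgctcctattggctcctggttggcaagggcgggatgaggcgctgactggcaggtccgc

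Levels are given on the deposited scale, taken to be log2(FPKM + 1), where FPKM counts fragments per kilobase of transcript, scaled to library size. No source used here names the base or the constant. All cells share 1 distribution of values, with 4369 genes (51.7% of rows) at or above FPKM 1 in each, and their read depth is unknown. Detection means FPKM 1 or more, a deposited value of 1. Fibroblast markers were present throughout: each cell had 10 or 11 of the 11 fibroblast markers with a row. Cell 16 stood apart, as described with the values per cell.

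Respiratory chain genes were expressed far above the table's middle. Of the 87 genes 62 (71.3%) were detected in all 17 cells, against 12.4% of the 8359 other rows. The median of their means was 7.20, against 1.87 for the other rows. At FPKM 10 or more, 41 were found in all 17 cells (47.1%, against 5.22%). The 87 genes had a median exonic length of 1789 bases, against 4444 in the other rows with a length. FPKM divides by length, and the part of length in these differences was not tested. A cell had 76 to 84 of the 87 genes. The genes outside this pattern were mostly no subunits: of the 8 genes detected in fewer than 9 cells, 4 are assembly factors, 2 are Ndufa4l2 and Atp5s, and 2 are the tissue isoforms Cox6b2 and Cox7a1. Without these isoforms and the 10 non-subunits, 75 subunit genes remain, of which a cell had 71 to 75. All 10 widely expressed subunits of complex IV and all 15 of complex V were detected together in each of the 17 cells. The exact Clopper-Pearson 95% interval is 80.5% to 100%. It takes the cells as independent, which cannot be checked as no animal is named. It covers counting error over cells only, not the spread between animals. The complete set was found in 11 cells for the 36 subunits of complex I, in 9 for the 9 of complex III and in 10 for the 4 of complex II.

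**Figure D1:**
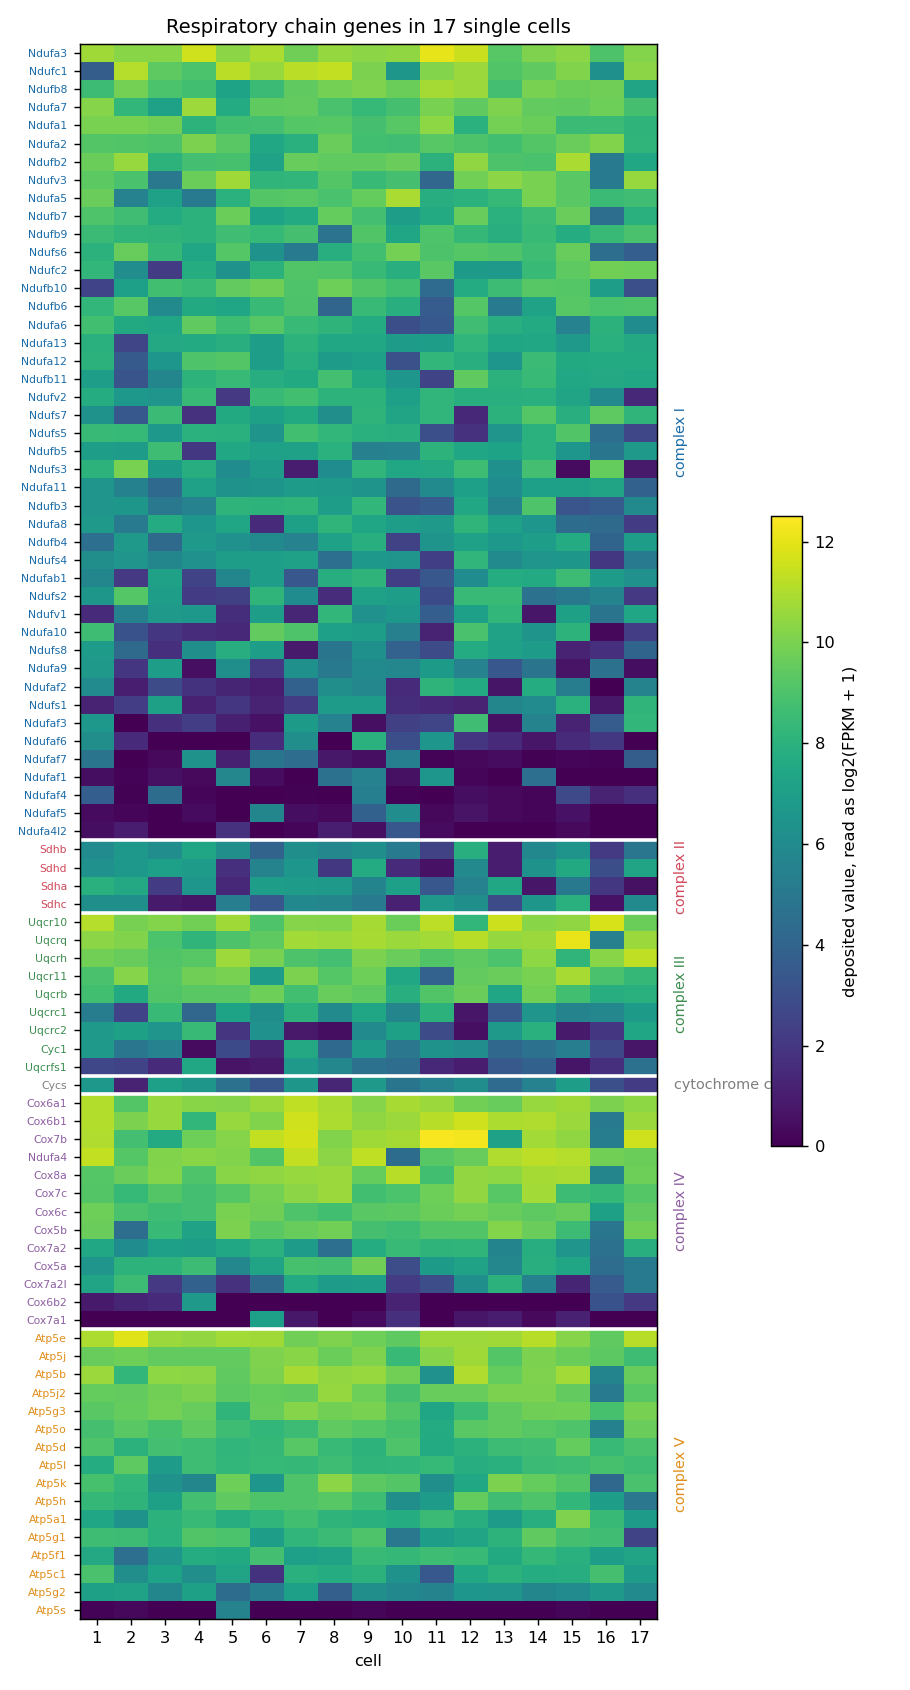
Deposited value, read as log2(FPKM + 1), of each of the 87 genes (rows, by complex and falling mean) in each of the 17 cells (columns). Complexes IV and V are filled almost throughout, with 11 of 13 and 15 of 16 genes detected in all cells, whereas at the foot of complex I the assembly factors Ndufaf7, Ndufaf4, Ndufaf1 and Ndufaf5 are dark in most cells, detected in 7, 6, 5 and 3.

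Complex I, the largest complex, spanned a wide range of levels, with means from 3.76 to 10.44 over its 36 subunits. The assembly factors and Ndufa4l2, counted with it, reached down to 0.53. Its highest genes were the accessory subunits Ndufa3, Ndufc1 and Ndufb8, which surround the catalytic core without carrying out electron transfer. Ndufa3 (ENSMUSG00000035674, chromosome 7 from 3617373 to 3620327 in GRCm38) had its lowest value in cell 16, a median of 10.32 and its highest value, 12.02, in cell 11 (mean 10.44, SD 0.77, n = 17 cells). Every cell held a high Ndufa3 value. Ndufc1 had a lowest value of 3.68 in cell 1, a median of 10.12 and a highest value of 11.34 in cell 8 (mean 9.43, SD 2.08). It was low in few cells, with 6.26 in cell 16 and 6.61 in cell 10 next above cell 1. Ndufb8 averaged 9.30 (SD 1.02), and it shares exonic bases with the gene model Gm20538 on the same strand, so its reads may be split. Ndufs5, whose promoter stretch is printed above, ranged from 1.76 in cell 12 through 7.93 to 9.10 in cell 15 (mean 6.72, SD 2.30), and was also low in cells 17 (2.65) and 11 (3.07).

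The 7 nuclear core subunits of complex I, which carry the flavin and iron-sulphur centres and the quinone site, lay lower and varied more. Their means ran from 3.76 to 6.97 with a median of 5.56, against 7.57 for the 29 accessory subunits, whose means ran from 4.35 to 10.44, so the ranges overlap. The core genes' median SD was 2.54, against 1.65 for the accessory genes. Ndufv2 (mean 6.97) and Ndufs7 (mean 6.84) led the core, and Ndufv1, whose product binds NADH, averaged 5.34 (SD 2.56). Ndufs1, the largest iron-sulphur subunit, had the lowest mean of all 36 subunits, 3.76 (SD 2.85). Its values fell apart: 7 cells lay between 5.76 and 8.18 (cells 3, 8, 9, 13, 14, 15 and 17) and 10 cells between 0.81 and 2.29, with none in between. Its exonic length is the longest of the complex, and multiplied by it the mean of Ndufs1 was 6.43, above Ndufs8 (5.11) and Ndufa9 (5.26), so its place as the lowest subunit is not kept on that scale. Ndufa10, an accessory subunit, had the largest SD of all 87 genes, 3.26, from 0.26 in cell 16 to 9.49 in cell 6 with a median of 6.48. All 7 core genes were detected together in 12 cells, and at FPKM 10 in 2.

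Assembly factors of complex I, which help build the complex but are not part of it, were sparse beside its subunits. Their means ran from 1.15 to 3.92 with a median of 1.97, near the 1.87 of the 8359 other rows. None was detected in all cells, against 12.4% of the other rows. Ndufaf2 (mean 3.92) was detected in 15 cells, Ndufaf3 in 13, Ndufaf6 in 11, Ndufaf7 in 7, Ndufaf4 in 6 and Ndufaf1 in 5. Ndufaf5 (chromosome 2 from 140170649 to 140203689) was detected in 3 cells, at 5.76 in cell 6, 3.87 in cell 9 and 6.12 in cell 10. A cell had 1 to 5 of the 7. These genes were as variable as the core subunits, with a median SD of 2.48. Ndufa4l2, a paralog of Ndufa4 known to be induced by hypoxia, was lowest of the genes counted with complex I, with a mean of 0.53. It was detected in cells 5, 8 and 10, at most at 3.41 in cell 10. The same cell held the lowest value of Ndufa4 itself, 4.43. Across cells the Pearson correlation of the pair was -0.742 but the Spearman correlation was -0.0648 (n = 17), and without cell 10 the Pearson value was -0.0601, so it rests on that cell.

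Complex II, which links the citric acid cycle to the chain, was low and even among its genes. The means of Sdhb, Sdhd, Sdha and Sdhc were 5.31, 4.93, 4.93 and 4.56, and none was detected in all cells. Sdhb, the iron-sulphur subunit (ENSMUSG00000009863, chromosome 4 from 140961203 to 140979193), ranged from 0.94 in cell 13 through a median of 6.04 to 7.83 in cell 12 (SD 1.90). Sdha, the flavin subunit that oxidises succinate, ranged from 0.57 in cell 17 through 5.63 to 7.96 in cell 1 and had the largest SD of the complex, 2.61. The membrane anchor Sdhc was detected in the fewest cells, 14, and the other anchor Sdhd in 15. Each gene was therefore below the threshold in 1 to 3 cells, not in the same ones throughout: cell 13 lacked Sdhb and Sdhd, cells 14 and 17 lacked Sdha, cell 11 lacked Sdhd, and cells 3, 4 and 16 lacked Sdhc. Multiplied by exonic length the genes stayed below the median of complexes I, III, IV and V, with a median of 6.24.

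Complex III separated into its small subunits and its large ones. The 5 small genes Uqcr10, Uqcrq, Uqcrh, Uqcr11 and Uqcrb had means from 8.81 to 10.29 and were each found at FPKM 10 or more in all 17 cells. The 4 genes of the catalytic centres and core proteins had means from 3.19 to 5.76, and none was detected in all cells. The means of these sets do not overlap, and they did not after multiplication by exonic length either (8.34 to 10.88 against 3.54 to 7.72). Uqcr10 (ENSMUSG00000059534, chromosome 11 from 4701973 to 4704342) ranged from 8.26 in cell 12 through 10.22 to 11.75 in cell 16 (SD 0.88). Uqcrq ranged from 5.42 in cell 16 through 10.60 to 12.09 in cell 15 (SD 1.51), so these subunits of one complex had their extremes in cell 16 at opposite ends. Uqcrfs1, the Rieske iron-sulphur protein, was lowest with a mean of 3.19 (SD 2.18) and was detected in 13 cells. Uqcrc2, a core protein, also in 13 cells, had the largest SD of the complex, 2.99, and its values ran from 0.48 in cell 8 through 6.31 to 8.47 in cell 4. Cyc1, the haem protein that passes electrons to cytochrome c, averaged 4.44 and was detected in 15 cells. Cycs, cytochrome c itself, was detected in all 17 cells with a mean of 4.88 (SD 1.98), from 1.25 in cell 2 through 5.52 to 7.08 in cell 3, and in 12 cells at FPKM 10.

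Complex IV had the highest median of member means, 9.23. Its widely expressed subunits, which surround the mitochondrially encoded catalytic core, were all detected in all 17 cells. Cox6a1 (ENSMUSG00000041697, chromosome 5 from 115345642 to 115348981), whose promoter is printed above, ranged from 9.18 in cell 2 through 10.58 to 11.30 in cell 7 (mean 10.42). With an SD of 0.53 it was the steadiest gene of the complex. Cox6b1, which helps join the monomers of the enzyme, lay between 8.25 and 11.58 in 16 cells with a mean over all cells of 10.31 (SD 1.53). Cell 16 was far below them at 5.13. Cox7b averaged 10.11 and had the largest SD of the subunits, 1.90, with 5.29 in cell 16, 7.17 in cell 13 and 12.36 in cell 11. Cox7a2 (7.03) and Cox5a (7.01) were the lowest of the 10. Cox7a2l, a factor linked to supercomplexes, in which complexes of the chain join, was detected in all cells at a mean of 4.97 (SD 2.39).

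Isoforms named for other tissues were near the floor. Cox7a1, the heart, muscle and brown fat form of Cox7a2, was detected in 4 cells with a median of 0.00, and passed FPKM 10 in cell 6 alone, at 7.06. Its widely expressed counterpart Cox7a2 was at 7.97 in that cell and at least 4.58 in every cell. Cox6b2, the testis form of Cox6b1, was detected in 6 cells and passed FPKM 10 in cell 4 alone, at 6.78. Cell 4 also held the lowest Cox6b1 value outside cell 16, 8.25. Over all cells the correlation of Cox6b1 with Cox6b2 was -0.665 (Spearman -0.588). Without cell 16 it was -0.835, and without cell 4 it was -0.744 (n = 16 for each). Cox6b2 was highest in cell 4 and next highest in cell 16, at 3.17, and Cox6b1 was lowest in the same cells. Each of these values includes cell 4, cell 16 or both, so the correlation may rest on these cells. The other isoforms of this kind looked for (Cox4i2, Cox6a2, Cox7b2, Cox8b, Cox8c and Cyct) have no row and are not analysed here, and neither is Cox4i1.

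Complex V had the lowest median SD of the complexes over all their genes, 0.997. All 15 of its subunits were detected in every cell, 13 of them at FPKM 10 or more. Their median SD of 0.98 was below the 1.65 over all 77 subunits, but above the 0.88 of complex III genes detected in all cells. Against other rows of like mean, as described below, 8 of the 16 genes of complex V had an SD below their median. Atp5e (ENSMUSG00000016252, chromosome 2 from 174461072 to 174464105), a small subunit of the rotor stalk, had the highest mean of all 87 genes, 10.50 (SD 0.65), from 9.40 in cell 10 through 10.66 to 11.88 in cell 2. Atp5j, of the stalk that holds the enzyme still, averaged 9.66 (SD 0.58). It shares 397 exonic bases with Gabpa on the opposite strand, and whether counting used strand is not given in the sources used here. Atp5b, the catalytic subunit, averaged 9.63 (SD 1.53), with 5.64 in cell 16, 6.30 in cell 11 and a median of 10.10. Atp5d had the smallest SD of all 87 genes, 0.49, within 7.66 to 9.56. Atp5c1, the central shaft, had the largest SD of the complex, 1.82, and a lowest value of 1.85 in cell 6. Atp5a1, partner of Atp5b in the catalytic head, averaged 7.97 (SD 0.83).

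The membrane rotor of complex V is a ring of 1 protein made from 3 genes, whose mature products are the same. Atp5g3 was the highest of them at a mean of 9.35 (SD 0.74), with Atp5g1 at 7.81 (SD 1.73) and Atp5g2 at 6.06 (SD 0.95). Atp5g3 exceeded Atp5g2 in all 17 cells, at 7.40 to 10.21 against 3.76 to 7.21. Atp5g1 varied most of the 3, from 2.57 in cell 17 and 5.01 in cell 10 to 9.47 in cell 14. Atp5s, which encodes a coupling factor and no subunit, was detected in cell 5 alone, at 5.59.

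**Figure D2:**
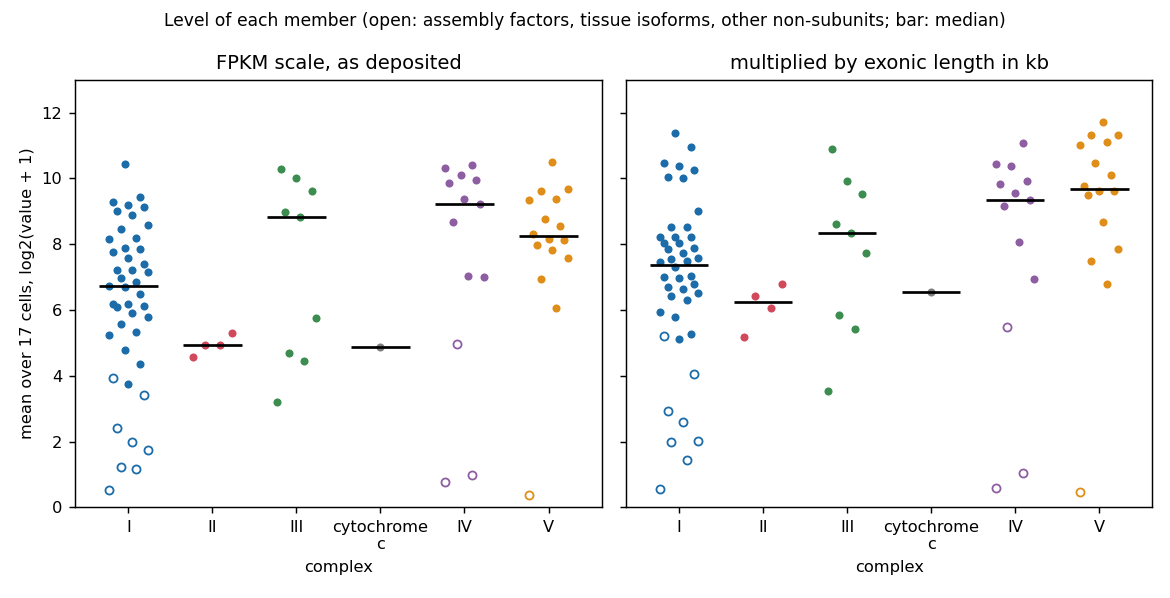
Mean over 17 cells of each of the 87 genes by complex, on the deposited scale (left) and with FPKM multiplied by exonic length in kb (right), both as log2(value + 1). Filled points are widely expressed subunits, open points assembly factors, tissue isoforms and other non-subunits, and bars are medians. On the left complex IV has the highest median (9.23), above III (8.81) and V (8.24). On the right complex V is highest (9.69), above IV (9.33) and III (8.34).

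FPKM divides by length, while a 3' end kit reads 1 end of each transcript, so the order of genes was also taken after multiplication by exonic length (the union of GENCODE M21 exons, which may differ from the length the authors used). The medians of complexes I to V were then 7.38, 6.24, 8.34, 9.33 and 9.69, against 6.71, 4.93, 8.81, 9.23 and 8.24 as deposited. Complex II stayed lowest. The core genes of complex I stayed below its accessory genes by median (6.70 against 7.87), and the assembly factors stayed lower still at 2.58. Atp5b took the highest place in complex V, at 11.71, and Ndufb2 the highest in complex I, at 11.39. Ndufb2 shares exonic bases with Braf, Gm16272 and Gm42420. In all, 30 of the 87 genes share exonic bases with another annotated gene, 24 of them with a protein-coding one.

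Members were as spread as other rows of like level, or somewhat more. The 27 genes with means from 8 to 10 had a median SD of 1.02, the same as the 211 other rows in that range. At means from 6 to 8 the median SD was 1.82 in 24 members and 1.70 in 509 other rows, and at 4 to 6 it was 2.40 in 16 members and 2.31 in 946 other rows. Members also had the larger median SD at means of 10 or more (0.88 in 7, against 0.77 in 58), from 2 to 4 (2.79 in 5, against 2.36 in 2217) and below 2 (1.76 in 8, against 1.69 in 4418). Set against other rows with a mean within 0.5 of its own, 32 of 87 genes had an SD below the median of those rows. In complex I, 0 of 7 core subunits, 1 of 7 assembly factors and 12 of 29 accessory subunits lay below it. The count was 1 of 4 in complex II, 4 of 9 in III and 4 of 13 in IV, while complex V divided evenly with 8 of 16.

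**Figure D3:**
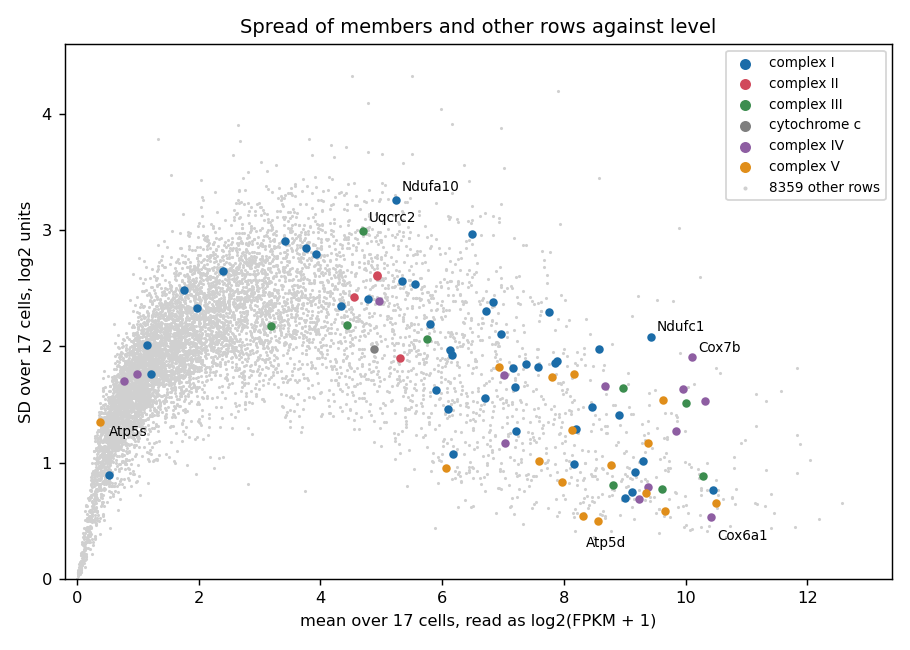
SD over 17 cells against mean over 17 cells for the 87 genes, coloured by complex, and for 8359 other rows in grey, in log2 units. The genes lie within the cloud of other rows, from Ndufa10 with an SD of 3.26 to Atp5d with 0.49.

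Averaged over the 86 members detected in at least 3 cells, the level per cell ranged from 5.65 in cell 16 through a median of 6.86 to 7.71 in cell 9 (SD 0.51). Cells 14 (7.49), 1 and 7 (both 7.35) followed cell 9. Cell 16 was the lowest for complexes I (5.32), II (1.94), IV (5.57) and V (7.47); for complex III cells 12 and 16 were both at 6.25. Of the 62 genes detected in all cells 14 had their lowest value in cell 16, among them Cox6b1, Cox7b, Cox8a, Uqcrq, Atp5b, Atp5j2 and Atp5o. No such count is given for the 1038 other rows detected in all cells, whose mean was also lowest in cell 16. Other members were at their highest in the same cell: Ndufa2, Ndufc2, Ndufs7, Ndufa11 and Uqcr10. Complex II varied most from cell to cell, with an SD of 1.47 and a range from 1.94 to 6.78, but it averages only 4 genes; complex V varied least, with an SD of 0.48.

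The level per cell moved together with that of other well-detected genes. Its Pearson correlation with the mean of the 1038 other rows detected in all cells was 0.849 (Spearman 0.873, n = 17 cells), and 0.798 without cell 16. Each pair of means here shares its libraries and normalisation. The other rows ranged less, from 6.58 in cell 16 to 7.35 in cell 14 (SD 0.21). The number of rows at the lowest value, the only trace of library complexity left, ran from 871 to 1766 and had a correlation of -0.365 with the level per cell. Markers of adipocytes moved against it. Of 7 such markers 3 have a row (Fabp4, Cfd and Car3), and their summed level was 22.08 in cell 16, against 0.77 to 13.58 in the other cells. Its correlation with the level of the chain, taken over the list mean, was -0.783, and -0.643 without cell 16. The summed level of 3 Schwann cell or melanocyte markers (S100b, Mbp and Mitf) was 13.62 in cell 16, against 0.75 to 11.55 elsewhere. Fibroblast markers summed to 90.88 in cell 16, within the 80.89 to 104.07 of the other cells. The part of these markers in the low values of cell 16 was not tested.

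**Figure D4:**
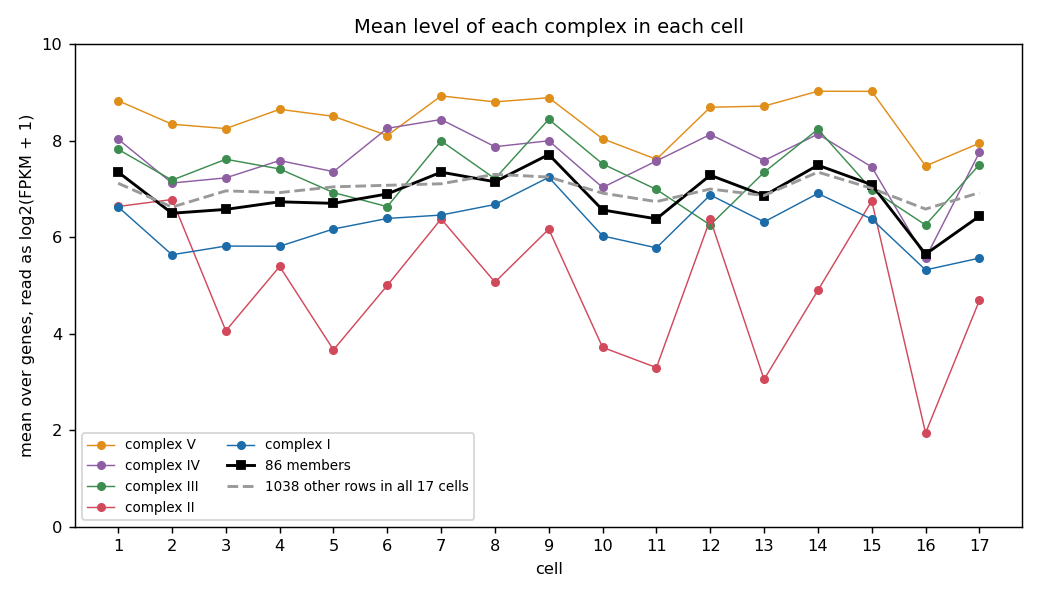
Mean value of the members of each complex in each of the 17 cells, with the mean of all 86 members (black squares) and of 1038 other rows detected in all cells (dashed grey), read as log2(FPKM + 1). The members' mean falls to 5.65 in cell 16 and peaks at 7.71 in cell 9, and the grey line has its lowest value, 6.58, in cell 16 too.

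Single genes of the chain were only weakly correlated over cells. The mean pairwise Pearson correlation of the 86 members was 0.0766 (Spearman 0.0661, n = 17 cells), with 60.0% of 3655 pairs above 0. Over all pairs of the 7551 rows detected in at least 3 cells the mean was 0.00 with 49.0% above 0, and over the 1038 other rows in all cells it was 0.0117 with 50.6%. For comparison, 79 cytosolic ribosomal protein genes had a mean of 0.162. Within complexes the mean was 0.190 for the 4 genes of complex II, 0.178 for complex IV, 0.0947 for complex V, 0.0500 for complex I and -0.00588 for complex III. Cell 16 decides the value of complex IV, which was 0.0603 without it, and of complex II, which was 0.0955.

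The pairs most alike were found both within and across complexes. Uqcrq and Cox6b1, of complexes III and IV, had the highest correlation, 0.887 (Spearman 0.659), and 0.669 without cell 16. Atp5j2 and Atp5o, both of complex V, had 0.870, but 0.340 without cell 16, so cell 16 decides this pair. Ndufs4 and Atp5b had 0.825 and kept 0.704. In complex I the leading pair was Ndufb2 and Ndufb7 (0.790, and 0.584 without cell 16), in complex II Sdhb and Sdhd (0.635 and 0.624), in complex III Uqcrq and Cyc1 (0.504 and 0.562), and in complex IV Cox6b1 and Cox8a (0.826 and 0.355). Without cell 16 the highest of all pairs was Ndufa11 with Atp5h, at 0.865 (0.754 with it). Both were low in cells 10 and 17, at 4.34 and 3.89 for Ndufa11 and 6.20 and 4.94 for Atp5h, and Ndufa11 was also low in cell 3, at 4.27. Of 223 pairs above 0.5 (6.10% of the pairs), 130 stayed above it without cell 16. In all, 186 pairs were above 0.5 without that cell. Over all rows in 3 or more cells the share of pairs above 0.5 was 2.57%. Over other rows detected in all cells it was 4.05%, against 8.73% over members detected in all cells. With 3655 pairs over 17 cells, the highest values are picked from many.

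Averaging over the genes of a complex removes much of the spread of single genes, so correlations of complex means cannot be set against those of gene pairs. Gene pairs between complexes averaged 0.0419 (I and III) to 0.187 (II and V). Between complexes I and V the correlation of per-cell means was 0.772 (Spearman 0.792, n = 17 cells), between I and IV 0.704, between II and V 0.673 and between IV and V 0.627. Without cell 16 these were 0.707, 0.647, 0.549 and 0.408. Complex III had the lowest values, 0.303 to 0.497 with the other complexes, and 0.0936 (with II) to 0.347 (with V) without cell 16. The mean of the 10 pairs was 0.552, and 0.390 without cell 16. After regression on the per-cell mean of the 1038 other rows it was 0.260, with II and V (0.603) and II and IV (0.504) the highest pairs and I and III at -0.124. Each gene was also set against the mean of the 85 other members, where Atp5b (0.779, Spearman 0.787) and Ndufa10 (0.742, Spearman 0.718) were highest and Cox6b2 lowest at -0.485. By promoter motif, the 18 members with an NRF-1 motif had a median mean of 6.45, and the 54 without it 7.40. For ETS the order was the other way, 8.18 in 16 members with the motif and 7.02 in 56 without, and for YY1 it was 6.38 in 4 with and 7.30 in 68 without.

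**Figure D5:**
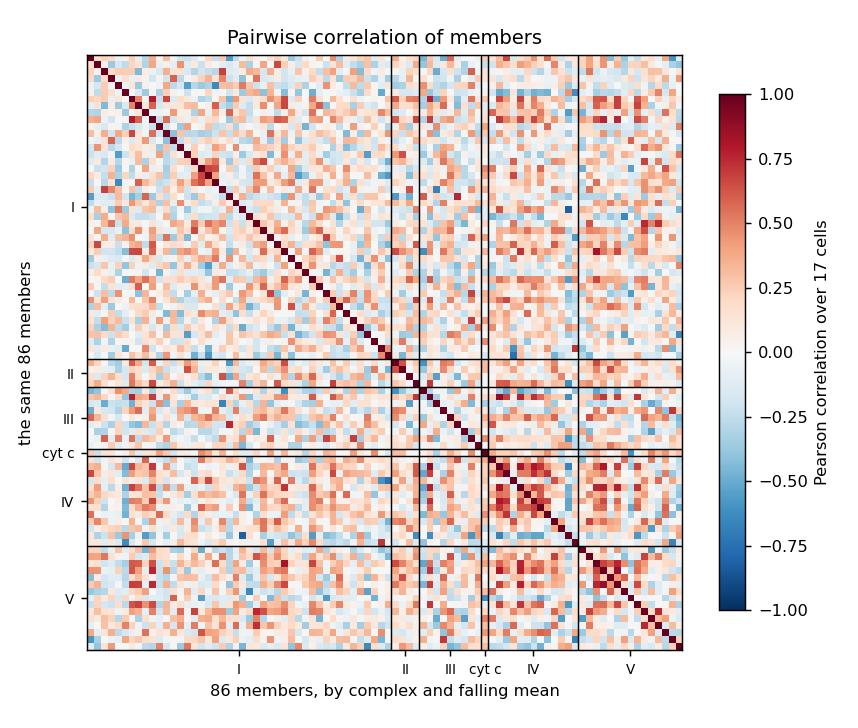
Pearson correlation over 17 cells of each pair of the 86 members detected in at least 3 cells, ordered by complex and falling mean, from -1 (blue) to 1 (red). Red patches stand in complex IV (mean 0.178, and 0.0603 without cell 16) and between complexes IV and V (mean 0.121). Pairs of complex II, which has 4 genes, averaged 0.165 with IV and 0.187 with V. Complex III shows no block (mean -0.00588).

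Most lists of other mitochondrial genes had a smaller share detected in all cells than the members. Over the 8359 rows outside the rule this share was 12.4%. Assembly factors, citric acid cycle genes and mitochondrial ribosomal proteins lay near it. Of 39 assembly factors for complexes I to V outside the symbol rule, 33 have a row and 5 were detected in all cells. The highest means were those of Uqcc2 of complex III (9.39, SD 0.79) and Cox20 of complex IV (7.78, detected in 16 cells). The exception was ATP synthase genes under other symbols, where both genes with a row, the subunit Usmg5 (mean 9.14) and the inhibitor Atpif1 (mean 8.70), were in all cells. Of 7 carriers and porins 4 were, led by the ADP/ATP carrier Slc25a5 (mean 7.60) and the phosphate carrier Slc25a3 (mean 7.25). All 17 citric acid cycle genes have a row but 2 were in all cells, Mdh2 (mean 6.51) and Suclg1 (mean 4.80). Of 21 import and chaperone genes 9 were, led by Chchd2 (mean 9.12) and Timm8b (mean 8.65), and of 7 antioxidant genes 3 were, led by Gpx4 (mean 9.49) and Prdx5 (mean 8.08). Of 77 mitochondrial ribosomal protein genes 12 were, led by Mrpl33 (mean 8.95) and Mrpl52 (mean 8.86).

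Regulators of mitochondrial biogenesis were low beside the members, but near the level of the table's other rows. Of 20 listed, 14 have a row, and their median mean was 1.54, against 1.87 for the 8359 rows outside the rule. None was detected in all cells, against 12.4% of those rows. The highest were Mterf3 (mean 3.37), a factor of mitochondrial DNA expression, and the coactivator Pprc1 (mean 3.01). Of the factors whose motifs were searched, Nrf1 was detected in 7 cells (mean 1.72), Gabpa in 9 (mean 1.73) and Yy1 in 8 (mean 1.97). Over cells, the correlation of the list mean with the level of the chain was 0.820 for mitochondrial ribosomal proteins, 0.686 for import and chaperones, 0.652 for the citric acid cycle, 0.574 for the assembly factors and 0.555 for carriers and porins, beside 0.849 for the other rows detected in all cells. The order rests in part on cell 16: without it the values were 0.846, 0.708, 0.505, 0.752 and 0.375. The 7 antioxidant genes had 0.214, and 0.338 without cell 16. Glycolytic genes, led by Aldoa (mean 7.63) and Gapdh (mean 6.68) and with 7 of 15 in all cells, had a correlation of 0.00552 with the chain, and 0.149 without cell 16. Cytosolic ribosomal proteins, led by Rpl41 (mean 11.40) and Rpl32 (mean 10.81), had -0.437, and -0.243 without cell 16. The 8 hypoxia-response genes were led by Vegfa (mean 5.05) and Higd1a (mean 4.97). The 7 of them used for the correlation had -0.378, and -0.465 without cell 16. The regulators had -0.0828, and 0.0555 without cell 16.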

How the data were processed

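RNA of 17 single Tomato-positive skin cells was measured in 1 table. The authors' deposited values were read as log2(FPKM + 1). Base 2 was taken since cell 1 then sums to 592955 FPKM, against 1.27e+07 with base e. TopHat2 and Cufflinks on GRCm38 made them, per the submitters' processing notes. For versions, strand handling and filters, no statement was found in the sources used here. The sorted deposited values above 3 differ by at most 0.0165 between cells, the form that quantile normalisation gives, so depth per cell is unknown and equal distributions can shift single genes between cells.

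All 87 members and 8431 of 8446 rows matched GENCODE M21 by identifier. Means and SDs are over 17 cells. Correlations used genes detected in at least 3 cells and carry no p-value, as no animals are named. The correlation code was tested on simulated data. Members, gene lists, motifs and the naming rule (in each complex the highest 3 means, the largest SD, the fewest cells and the closest pair; per other list the highest 2 means) were chosen with earlier results of these data known. A few other genes were named after their values were seen. Alternatives covered thresholds, pseudocount, length, correlation measure and omitted cells. Python 3.11.15, numpy 2.4.6, pandas 2.3.3 and matplotlib 3.10.9 were used.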

Additional observations from a re-analysis of the deposited data

How the results depend on the processing

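No paired analysis was possible because all cells form 1 group. Of 62 members detected in all cells, 41 remained at FPKM 10. Multiplication by exonic length took the median of complex V to 9.69. With subunits alone the lowest cell mean was 6.17 over all members and 6.26 for complex I, since low assembly factors leave the mean. Among members in all 17 cells the median SD of complex III was 0.88, and mean correlations were -0.109 for complex III, 0.302 for complex IV and 0.732 between the means of complexes I, III, IV and V (0.573 with all members). By Spearman complex III had 0.000631, and glycolysis -0.127 against the chain. Without cell 16, added later, the regulators had 0.0555. In cells 6 to 14, an alternative chosen after the data were seen, complexes II, III and IV had 0.0696, 0.0682 and -0.00290. The regression on other rows, also added later, gave 0.260 between complexes and 0.0178 over all pairs. Leaving out each cell in turn gave 0.0515 to 0.0836 over all members, 0.0371 to 0.0582 for complex I, 0.0955 to 0.233 for II, -0.0362 to 0.00942 for III, 0.0603 to 0.204 for IV, 0.0753 to 0.113 for V and 0.390 to 0.613 between complexes. On the transcribed strand alone the ETS motif stood in 6.94% of members' windows. Read depth is unknown, so detection has no limit in counts. Causes beyond the settings' own construction were not tested.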
